A study of Mus musculus with 12 samples.

Results

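The genes of glycolysis, of gluconeogenesis and of glucose and lactate transport were followed through mouse development in whole embryos, as a list of 38 genes chosen by name. They comprised 4 glucose carriers, 3 hexokinases, 7 genes of upper and 9 of lower glycolysis, 4 genes of lactate formation and transport, 5 genes of pyruvate dehydrogenase control and 6 genes of gluconeogenesis. All 38 were found on the array, each on 1 row, among 21980 features tested, where a feature is a row that carries a gene symbol (the brightest where rows shared the same symbols). Eno1 lay on a row that also names Eno1b, a near-identical copy, so that both are measured together.

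RNA was taken from mouse embryos of 5 stages on 12 Clariom S arrays, whose probe sets each report a well-annotated gene. Embryos of the pronuclear stage (day 0.5 of development), the 2-cell stage (day 1.5) and the morula stage (day 2.5) were pooled. These stages have 2 arrays each, and the labels do not state the number of embryos per pool. For E10.5 and for E16.5, each of 3 arrays held the RNA of 1 whole embryo. All embryos came from superovulated females mated naturally. The pronuclear embryos were washed and kept in KSOM, an embryo culture medium, after collection, and the E10.5 and E16.5 embryos were dissected from the mother. The labels name no strain, genotype or treatment that separates the groups, and 2 ng of total RNA was amplified for each array. RNA of a whole embryo mixes all its tissues, so fewer cells of a type and less RNA per cell cannot be told apart. The labels call the early pools biological replicates and the later embryos individuals. Litters are not given, so a p-value measures no more than the spread between the samples at hand.

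Glycolysis splits glucose into pyruvate with a net yield of ATP, and lactate dehydrogenase converts pyruvate to lactate and back. Gluconeogenesis runs the path in reverse, and differs from it at a few irreversible steps that have enzymes of their own. Most steps are catalysed by several isozymes encoded by separate genes and used to different degrees in muscle, liver, brain and other tissues. Cleavage-stage mouse embryos are known to depend on pyruvate and lactate, and to take up more glucose from compaction onward.

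Signals are on a log2 scale, and array medians ranged from 6.19 to 6.59. As a measure of background, the 95th percentile of 1410 olfactory and vomeronasal receptor genes was 5.85 in pronuclear embryos, 6.38 at the 2-cell stage, 6.10 in morulae, 5.38 in E10.5 embryos and 5.24 in E16.5 embryos. A signal at or below it is called within the receptor range, and a change that starts or ends there is not read as a fold. Levels are compared between stages for a gene, and not between genes. Lists of stage markers describe the arrays: the mean signal of 7 oocyte genes lay at 16.00 and 16.04 in the pronuclear pools, that of 6 genes of the 2-cell stage at 13.56 and 13.38 in the 2-cell pools, and that of 7 morula genes at 13.50 in both morula pools, above their level in every other array. Of the morula genes, Dppa3 was higher at the 2-cell stage (18.01) than in the morula (17.28). The lists were chosen with earlier results of these data known, so they cannot check the labels. The names of the array files carry different dates for the early and the late stages, without stating what was done on them. From morula to E10.5, this date, pooling and dissection change with the stage and cannot be told apart from it.

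**Figure D1:**
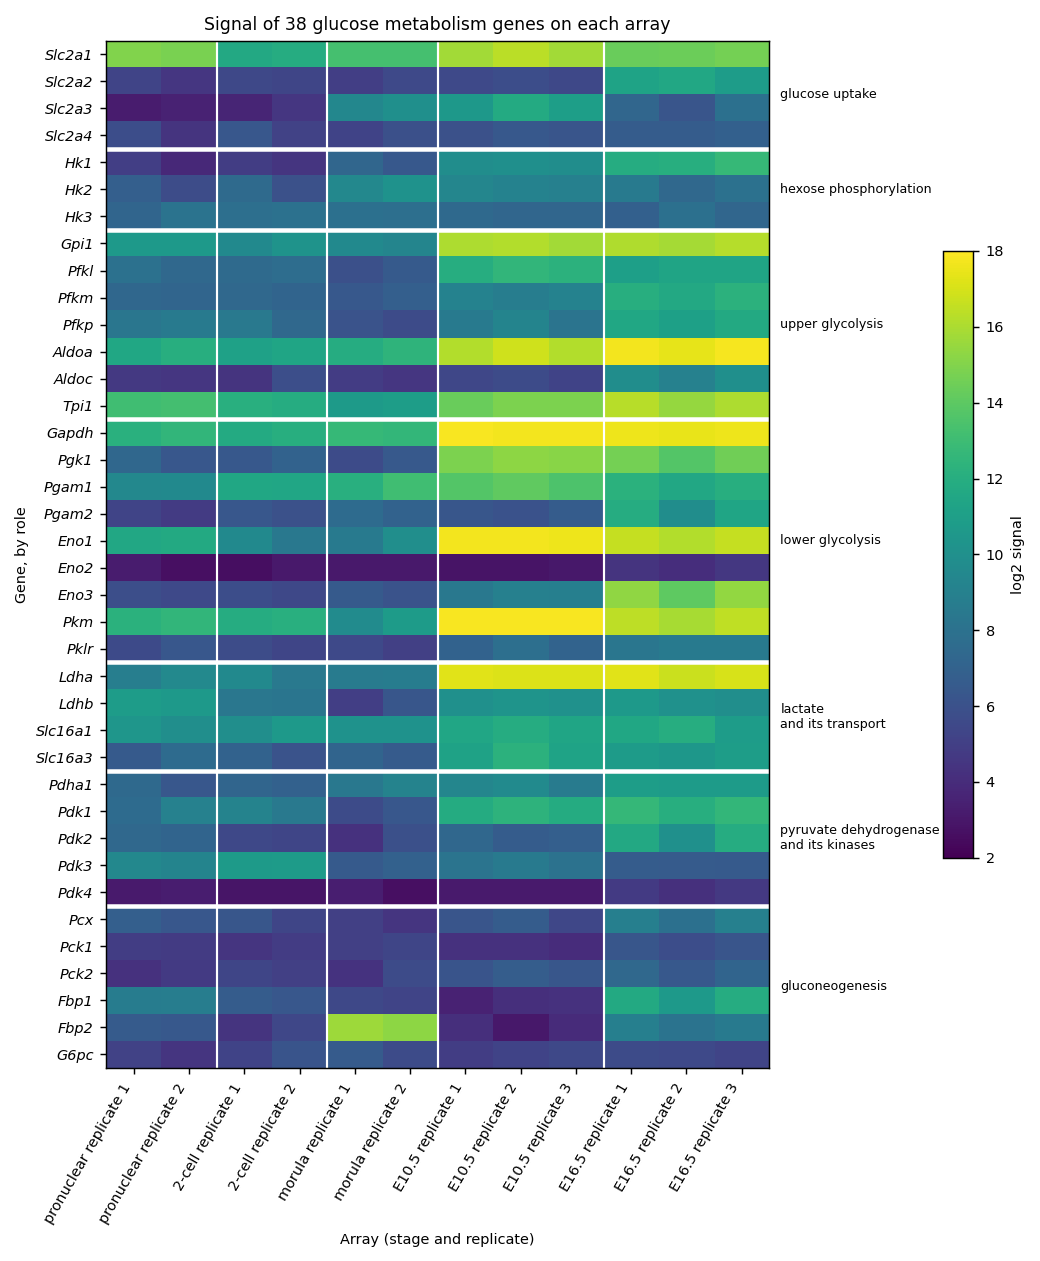
Log2 signal (colour) of the 38 genes (rows, by role) on each of the 12 arrays (columns, by stage and replicate). Most genes of glycolysis brighten between the morula and E10.5 columns, and Fbp2 is brightest in the 2 morula columns, at 15.64 and 15.31.

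The course of glucose genes over the stages was not shared by all members, and the widest movement fell between morula and E10.5. An F test over the stages passed for 37 of the 38 genes, all except the hexokinase Hk3 (adjusted p = 0.363), where 79.0% of all features passed. In the authors' deposited table, the F test over the stages also had a false discovery rate under 0.05 for 37 of the 38. Of the 38 genes, 21 had their highest stage mean at E16.5, 11 at E10.5, 3 in morulae (Hk2, Fbp2 and G6pc), 2 at the 2-cell stage (Hk3 and Pdk3) and 1 in pronuclear embryos (Ldhb). The lowest stage mean fell in morulae for 14 genes, more than at any other stage. Within the receptor range lay 12 of the genes in pronuclear embryos, 16 at the 2-cell stage, 15 in morulae, 6 in E10.5 embryos and 2 in E16.5 embryos. The limit itself was 6.38 at the 2-cell stage and 5.24 at E16.5, and G6pc lay within it at 5.69 and above it at 5.47. Shares of all features were not counted for this range or for the highest and lowest stages. These counts are therefore not read as particular to the 38 genes.

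From the pronuclear to the 2-cell stage 2 genes rose (5.26%, against 16.1% of all features) and 7 fell (18.4%, against 19.8%), with a median change of -0.11 (all features -0.02). Without replicate 1 of the 2-cell stage, the number that rose was 4. From the 2-cell stage to the morula 8 rose (21.1%, against 20.1%) and 8 fell (21.1%, against 20.2%), with a median of -0.12 (all features 0.11), shares near the background. From morula to E10.5 the count was 25 risen (65.8%, against 25.2%) and 4 fallen (10.5%, against 26.8%), and the median change was 1.69 while that of all features was -0.17. Centred on the median of the receptor genes instead, 28 rose and 1 fell at this step, the fall of Fbp2. Under that scaling 7283 of the 21980 features rose and 3562 fell, against 5532 and 5888 in the main fit. From E10.5 to E16.5, 18 rose (47.4%, against 17.4%) and 8 fell (21.1%, against 20.3%), with a median of 0.59 (all features -0.08). Under cyclic loess 19 rose and 5 fell, while 4310 of the 21980 features rose and 3696 fell. The tests here and below are limma's, with Benjamini-Hochberg adjustment over all features and a threshold of 0.05. The arrays of neighbouring stages did not overlap for 20, 24, 35 and 30 of the 38 genes at the 4 steps in turn, against 63.5%, 65.0%, 69.5% and 49.7% of all features.

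**Figure D2:**
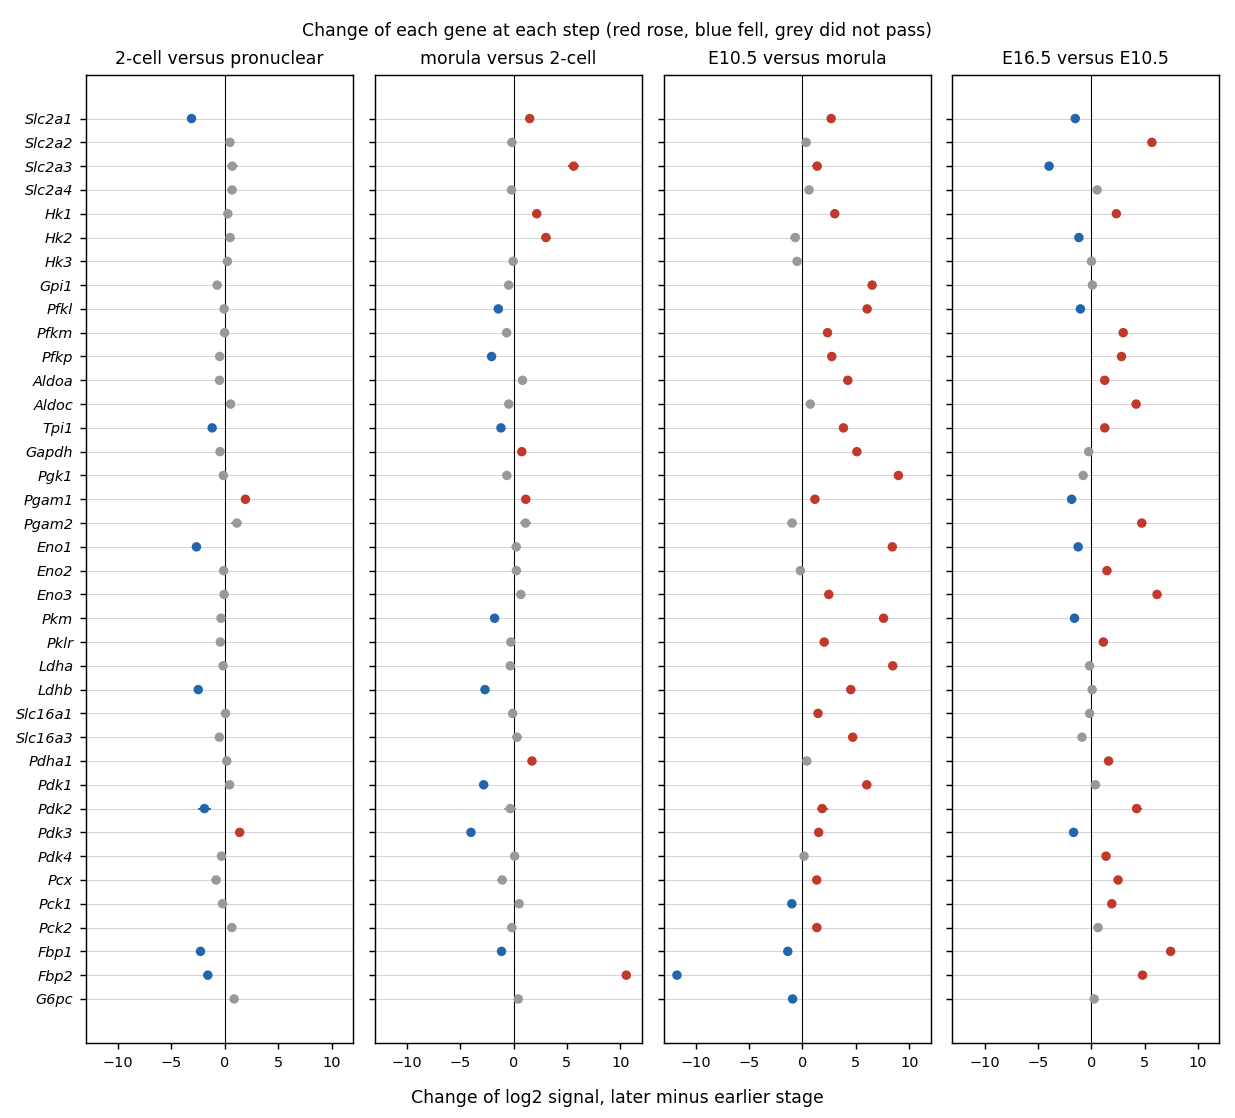
Change of log2 signal of each of the 38 genes at the 4 steps between consecutive stages (later minus earlier, points, with bars of 1 standard error that are mostly narrower than the point). Red marks genes that rose, blue genes that fell and grey those that did not pass; the E10.5 panel holds 25 red points, and Fbp2 lies farthest from 0 at both neighbouring steps of the morula, at 10.56 and -11.75.

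The promoters of 4 genes are shown, because Pgk1 and Ldha had the largest rises of the 38 genes at E10.5, and because Fbp2 and Fbp1 are neighbouring paralogs that moved apart in the morula. Each is the RefSeq promoter window (GRCm38.p6) from 250 bases before to 50 bases after the start of the gene, 5′ to 3′ on the gene's strand, and for Ldha the first of 2 entries. Capitals mark matches on either strand to ACGTG or GCGTG, letters of the hypoxia response element; the palindrome CACGTG (the E-box bound by Myc and Usf factors) holds a match on each strand. The windows lie at chrX:106186850-106187149 (plus strand, Pgk1), chr7:46845554-46845853 (plus strand, Ldha), chr13:62858351-62858650 (minus strand, Fbp2) and chr13:62888233-62888532 (minus strand, Fbp1).
Pgk1: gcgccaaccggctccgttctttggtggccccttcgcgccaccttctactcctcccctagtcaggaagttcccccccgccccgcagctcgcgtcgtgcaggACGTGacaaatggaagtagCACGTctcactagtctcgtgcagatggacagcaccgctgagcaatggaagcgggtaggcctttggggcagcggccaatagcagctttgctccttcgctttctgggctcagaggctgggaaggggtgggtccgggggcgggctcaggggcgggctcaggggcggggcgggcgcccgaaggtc
Ldha: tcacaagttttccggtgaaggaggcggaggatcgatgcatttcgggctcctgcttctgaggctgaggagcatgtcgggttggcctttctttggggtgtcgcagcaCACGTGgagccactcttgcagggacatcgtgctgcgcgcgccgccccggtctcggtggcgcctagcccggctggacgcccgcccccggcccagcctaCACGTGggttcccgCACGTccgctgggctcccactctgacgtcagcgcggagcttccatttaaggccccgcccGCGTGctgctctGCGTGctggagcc
Fbp2: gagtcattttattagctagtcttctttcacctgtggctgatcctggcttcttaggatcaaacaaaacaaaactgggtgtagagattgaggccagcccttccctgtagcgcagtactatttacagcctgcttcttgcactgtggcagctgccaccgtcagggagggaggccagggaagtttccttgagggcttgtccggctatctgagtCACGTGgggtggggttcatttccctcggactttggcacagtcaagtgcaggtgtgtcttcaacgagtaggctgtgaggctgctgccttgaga
Fbp1: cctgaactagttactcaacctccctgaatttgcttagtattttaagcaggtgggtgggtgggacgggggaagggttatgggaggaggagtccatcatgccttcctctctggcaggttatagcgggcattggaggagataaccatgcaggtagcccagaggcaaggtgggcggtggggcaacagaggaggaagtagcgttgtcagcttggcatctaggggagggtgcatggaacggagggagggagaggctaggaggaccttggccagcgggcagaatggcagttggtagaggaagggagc
In the windows shown, Pgk1 held 2 matches, Ldha 7, Fbp2 2 and Fbp1 0. The second Ldha window, not shown, held 2. Of 51 windows that RefSeq lists for 36 of the genes (it lists none for Slc2a3 and Slc2a4), 34 held a match (66.7%), against 50.3% of the 19839 windows of genes on the array. Some windows of the same gene overlap, as for Eno1, Aldoa and Pfkm, so the same letters can count more than once. By gene, 27 of the 36 had a window with a match, a share that was not counted for all genes. CACGTG was in 6 windows (11.8%), of Fbp2, Ldha, Pcx, Pdk2, Pfkm and Slc16a1, against 8.0% of all windows. Both sets had a median of 14 CpG dinucleotides per window. A match is a description of the letters and not a bound site.

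The glucose carriers followed different courses: Slc2a1 fell to the 2-cell stage and rose again, Slc2a3 left the receptor range in the morula, and Slc2a2 rose at E16.5. Slc2a1 encodes GLUT1, the carrier of most embryonic cells and of erythrocytes. Its signal was 14.99 and 14.79 in the pronuclear pools, 11.68 and 11.89 in the 2-cell pools and 13.31 and 13.28 in the morula pools. Later it was 15.78, 16.37 and 15.80 in the E10.5 embryos and 14.35, 14.43 and 14.66 in the E16.5 embryos. It fell by 3.11 ± 0.29 (SE, adjusted p = 6.95e-07) to the 2-cell stage, rose by 1.51 ± 0.29 (SE, adjusted p = 5.76e-04) to the morula and rose by 2.69 ± 0.26 (SE, adjusted p = 4.52e-07) to E10.5, and fell by 1.50 ± 0.24 (SE, adjusted p = 1.09e-04) to E16.5, with no overlap of arrays at any step. Slc2a3 encodes GLUT3, a high-affinity carrier of neurons and, in the mouse, of the trophectoderm. It read 3.19 and 3.56 in the pronuclear pools, 3.65 and 4.52 in the 2-cell pools and 9.43 and 9.99 in the morula pools. Later it was 10.51, 11.78 and 10.99 in the E10.5 embryos and 7.30, 6.23 and 7.88 in the E16.5 embryos. Both early stages were within the receptor range and both morula pools far above it; the gene rose by 5.62 ± 0.50 (SE, adjusted p = 3.24e-07) to the morula and fell by 3.95 ± 0.41 (SE, adjusted p = 1.91e-06) between E10.5 and E16.5. Its further rise to E10.5, of 1.38 ± 0.46 (SE, adjusted p = 0.0202), was not called without replicate 1 of the morula (1.10, adjusted p = 0.152), without replicate 2 of E10.5 (1.04, adjusted p = 0.0906) or under cyclic loess (1.02, adjusted p = 0.0697).

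Slc2a2 encodes GLUT2, the low-affinity carrier of hepatocytes and pancreatic beta cells. It read 5.26 and 4.53 in the pronuclear pools, 5.46 and 5.32 in the 2-cell pools and 4.96 and 5.50 in the morula pools. Later it was 5.52, 5.78 and 5.44 in the E10.5 embryos and 11.30, 11.60 and 10.87 in the E16.5 embryos. The first 3 stages were within the receptor range, and the 3 embryos of E16.5 stood apart from all other arrays; the gene rose by 5.68 ± 0.27 (SE, adjusted p = 3.39e-10) to E16.5. Slc2a4, the insulin-responsive GLUT4 of muscle and fat, passed at no single step, with stage means from 5.07 to 6.74.

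Of the hexokinases, which trap glucose in the cell as glucose 6-phosphate, Hk1 rose at each of the last 3 steps, Hk2 was highest in the morula, and Hk3 passed at no step. Hk1 is the widespread, mitochondria-bound form. Its signal was 4.95 and 3.83 in the pronuclear pools, 4.92 and 4.44 in the 2-cell pools and 7.27 and 6.42 in the morula pools. Later it was 9.83, 9.94 and 9.86 in the E10.5 embryos and 11.91, 12.05 and 12.71 in the E16.5 embryos. From the receptor range in the first 2 stages it rose by 2.17 ± 0.40 (SE, adjusted p = 4.46e-04) to the morula, rose by 3.03 ± 0.37 (SE, adjusted p = 4.63e-06) to E10.5 and rose by 2.35 ± 0.33 (SE, adjusted p = 3.77e-05) to E16.5. Hk2, the form of muscle and of many proliferating cells, read 6.83 and 5.70 in the pronuclear pools, 7.53 and 5.99 in the 2-cell pools and 9.44 and 10.14 in the morula pools. Later it was 9.35, 9.07 and 8.94 in the E10.5 embryos and 8.51, 7.38 and 7.98 in the E16.5 embryos. It rose by 3.03 ± 0.50 (SE, adjusted p = 1.55e-04) to the morula and differed by -0.67 ± 0.46 (SE, adjusted p = 0.239) at E10.5. The fall of Hk2 to E16.5, by 1.16 ± 0.41 (SE, adjusted p = 0.0353), was not called without any 1 of the E10.5 arrays or without replicate 2 or 3 of E16.5 (adjusted p from 0.0594 to 0.145), nor under 3 other scalings (adjusted p from 0.0599 to 0.0693). Stage means of Hk3, the hexokinase of leukocytes, lay between 7.35 and 7.89.

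In upper glycolysis, which turns glucose 6-phosphate into triose phosphates, 6 of 7 genes rose from morula to E10.5 and 5 of 7 rose from there to E16.5. Of all features, 25.2% and 17.4% rose at these steps. Before that, 0 of 7 rose and 1 fell at the 2-cell stage (16.1% and 19.8% of all features). At the morula 0 rose and 3 fell (20.1% and 20.2% of all features). Gpi1, the phosphoglucose isomerase, read 10.67 and 10.57 in the pronuclear pools, 9.62 and 10.19 in the 2-cell pools and 9.60 and 9.28 in the morula pools. Later it was 16.01, 16.15 and 15.75 in the E10.5 embryos and 16.11, 15.87 and 16.22 in the E16.5 embryos. It rose by 6.53 ± 0.27 (SE, adjusted p = 3.50e-11) to E10.5, and the E10.5 and E16.5 embryos overlapped. The phosphofructokinase genes encode the subunits of the committed step: Pfkl of liver, Pfkm of muscle and Pfkp of platelets, each also made elsewhere. Pfkl read 7.96 and 7.42 in the pronuclear pools, 7.54 and 7.72 in the 2-cell pools and 5.89 and 6.51 in the morula pools. Later it was 11.95, 12.56 and 12.26 in the E10.5 embryos and 11.05, 11.34 and 11.32 in the E16.5 embryos. It was lowest in the morula, after it fell by 1.43 ± 0.32 (SE, adjusted p = 0.00202), and rose by 6.06 ± 0.29 (SE, adjusted p = 1.82e-10) to E10.5. Its fall to E16.5 was -1.02 ± 0.26 (SE, adjusted p = 0.00561), which cyclic loess did not call (adjusted p = 0.0879).

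Pfkm and Pfkp kept on rising where Pfkl did not. Pfkm read 7.37 and 7.23 in the pronuclear pools, 7.42 and 7.16 in the 2-cell pools and 6.41 and 6.87 in the morula pools. Later it was 9.08, 8.77 and 9.12 in the E10.5 embryos and 12.00, 11.68 and 12.25 in the E16.5 embryos. It rose by 2.35 ± 0.27 (SE, adjusted p = 2.55e-06) to E10.5 and rose by 2.99 ± 0.24 (SE, adjusted p = 1.27e-07) to E16.5. Pfkp read 8.25 and 8.57 in the pronuclear pools, 8.49 and 7.39 in the 2-cell pools and 6.11 and 5.65 in the morula pools. Later it was 8.51, 9.21 and 8.16 in the E10.5 embryos and 11.55, 11.09 and 11.74 in the E16.5 embryos. This gene fell by 2.06 ± 0.41 (SE, adjusted p = 7.77e-04) into the receptor range of the morula, rose by 2.75 ± 0.37 (SE, adjusted p = 1.50e-05) to E10.5 and rose by 2.83 ± 0.33 (SE, adjusted p = 6.94e-06) to E16.5, and every E16.5 embryo was above every earlier array.

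Aldolase cleaves fructose bisphosphate, with Aldoa as the muscle and general form and Aldoc as the form of brain. Aldoa read 11.53 and 12.04 in the pronuclear pools, 11.17 and 11.42 in the 2-cell pools and 11.88 and 12.39 in the morula pools. Later it was 16.17, 16.82 and 16.17 in the E10.5 embryos and 17.73, 17.41 and 17.81 in the E16.5 embryos. It rose by 4.25 ± 0.30 (SE, adjusted p = 1.09e-08) to E10.5 and rose by 1.26 ± 0.27 (SE, adjusted p = 0.00140) to E16.5. Aldoc read 4.66 and 4.52 in the pronuclear pools, 4.43 and 5.84 in the 2-cell pools and 4.87 and 4.51 in the morula pools. Later it was 5.39, 5.64 and 5.24 in the E10.5 embryos and 9.86, 9.02 and 9.98 in the E16.5 embryos. The first 3 stages were within the receptor range, and Aldoc rose by 4.20 ± 0.34 (SE, adjusted p = 1.45e-07) at E16.5 alone. Tpi1, which interconverts the 2 triose phosphates, read 13.10 and 13.24 in the pronuclear pools, 12.08 and 11.91 in the 2-cell pools and 10.74 and 10.89 in the morula pools. Later it was 14.32, 14.85 and 14.82 in the E10.5 embryos and 16.26, 15.44 and 16.06 in the E16.5 embryos. This was a V-shaped course in which the gene fell by 1.18 ± 0.32 (SE, adjusted p = 0.00865) to the 2-cell stage, fell by 1.18 ± 0.32 (SE, adjusted p = 0.00738) to the morula, then rose by 3.84 ± 0.29 (SE, adjusted p = 2.47e-08) to E10.5 and rose by 1.26 ± 0.26 (SE, adjusted p = 0.00114) to E16.5. The first fall was not called without replicate 2 of the pronuclear stage (-1.10, adjusted p = 0.0562).

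In lower glycolysis, where ATP is regained, 7 of 9 genes rose and 0 fell from morula to E10.5, against 25.2% and 26.8% of all features. Gapdh, the triose phosphate dehydrogenase, read 12.16 and 12.55 in the pronuclear pools, 11.76 and 12.06 in the 2-cell pools and 12.74 and 12.61 in the morula pools. Later it was 17.86, 17.74 and 17.73 in the E10.5 embryos and 17.57, 17.44 and 17.58 in the E16.5 embryos. It rose by 5.10 ± 0.25 (SE, adjusted p = 1.74e-10) to E10.5 and differed by -0.24 ± 0.22 (SE, adjusted p = 0.441) at E16.5. A rise of 0.77 ± 0.27 (SE, adjusted p = 0.0327) from the 2-cell stage to the morula was lost under 9 alternatives besides the stricter thresholds, leaving out either morula pool or replicate 1 of the 2-cell stage among them (adjusted p from 0.0643 to 0.162). Pgk1, an X-linked gene whose product makes the first ATP of the pathway, read 7.33 and 6.34 in the pronuclear pools, 6.38 and 7.04 in the 2-cell pools and 5.68 and 6.48 in the morula pools. Later it was 14.85, 15.25 and 15.13 in the E10.5 embryos and 14.65, 13.74 and 14.55 in the E16.5 embryos. Its signal at the first 3 stages was near or within the receptor range; it rose by 8.99 ± 0.38 (SE, adjusted p = 4.15e-11) to E10.5, the largest rise among the 38 genes at that step.

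Phosphoglycerate mutase has a general form, Pgam1, and a muscle form, Pgam2. Pgam1 read 9.48 and 9.59 in the pronuclear pools, 11.50 and 11.45 in the 2-cell pools and 12.11 and 13.12 in the morula pools. Later it was 13.74, 14.11 and 13.51 in the E10.5 embryos and 12.19, 11.61 and 12.04 in the E16.5 embryos. It rose by 1.94 ± 0.35 (SE, adjusted p = 3.92e-04) to the 2-cell stage and fell by 1.84 ± 0.28 (SE, adjusted p = 9.44e-05) to E16.5. Its calls between were less stable: the rise to the morula of 1.14 ± 0.35 (SE, adjusted p = 0.0159) became 0.64 without replicate 2 of the morula (adjusted p = 0.202), and 1.12 without replicate 2 of the 2-cell stage (adjusted p = 0.0599). The rise to E10.5 of 1.17 ± 0.32 (SE, adjusted p = 0.00610) became 0.66 without replicate 1 of the morula (adjusted p = 0.140). Pgam2 read 5.26 and 4.78 in the pronuclear pools, 6.36 and 5.97 in the 2-cell pools and 7.57 and 7.0 in the morula pools. Later it was 6.26, 6.01 and 6.67 in the E10.5 embryos and 11.92, 9.82 and 11.41 in the E16.5 embryos. All E16.5 embryos stood above all earlier arrays, replicate 2 being the lowest of the 3, and Pgam2 rose by 4.73 ± 0.42 (SE, adjusted p = 3.42e-07) at this step.

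Of the enolases, Eno1 is the general form, Eno2 that of neurons and Eno3 that of muscle. The row of Eno1 and Eno1b read 11.61 and 11.70 in the pronuclear pools, 9.59 and 8.42 in the 2-cell pools and 8.61 and 9.90 in the morula pools. Later it was 17.69, 17.74 and 17.58 in the E10.5 embryos and 16.61, 16.13 and 16.58 in the E16.5 embryos. It fell by 2.65 ± 0.42 (SE, adjusted p = 1.26e-04) to the 2-cell stage, rose by 8.42 ± 0.38 (SE, adjusted p = 9.94e-11) to E10.5, and fell by 1.23 ± 0.34 (SE, adjusted p = 0.00945) to E16.5, a fall that cyclic loess did not call (adjusted p = 0.113). Eno3 read 5.82 and 5.55 in the pronuclear pools, 5.78 and 5.47 in the 2-cell pools and 6.52 and 6.08 in the morula pools. Later it was 8.40, 8.99 and 8.91 in the E10.5 embryos and 15.37, 14.04 and 15.38 in the E16.5 embryos. The muscle form rose by 2.47 ± 0.37 (SE, adjusted p = 4.55e-05) to E10.5 and rose by 6.16 ± 0.34 (SE, adjusted p = 1.31e-09) to E16.5. Eno2 stayed within the receptor range at every stage, and read 3.19 and 2.67 in the pronuclear pools, 2.57 and 3.09 in the 2-cell pools and 3.09 and 3.09 in the morula pools. Later it was 2.87, 2.83 and 3.0 in the E10.5 embryos and 4.42, 4.08 and 4.62 in the E16.5 embryos. Its step to E16.5 passed as a rise of 1.47 ± 0.25 (SE, adjusted p = 1.94e-04).

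Pyruvate kinase closes glycolysis, with Pkm expressed in most tissues and Pklr in liver and erythroid cells. Pkm read 12.23 and 12.50 in the pronuclear pools, 11.90 and 12.12 in the 2-cell pools and 9.71 and 10.75 in the morula pools. Later it was 17.84, 17.85 and 17.82 in the E10.5 embryos and 16.39, 15.91 and 16.47 in the E16.5 embryos. It fell by 1.78 ± 0.34 (SE, adjusted p = 5.42e-04) to the morula, rose by 7.60 ± 0.31 (SE, adjusted p = 2.98e-11) to E10.5 and fell by 1.57 ± 0.28 (SE, adjusted p = 2.98e-04) to E16.5, without overlap of arrays at these steps. The array values do not tell its M1 and M2 splice forms apart. Pklr read 5.59 and 6.33 in the pronuclear pools, 5.72 and 5.37 in the 2-cell pools and 5.50 and 5.06 in the morula pools. Later it was 7.04, 7.84 and 7.09 in the E10.5 embryos and 8.28, 8.57 and 8.51 in the E16.5 embryos. It rose by 2.04 ± 0.32 (SE, adjusted p = 5.71e-05) to E10.5 from the receptor range and rose by 1.13 ± 0.28 (SE, adjusted p = 0.00512) to E16.5.

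All 4 genes of lactate formation and transport rose from morula to E10.5, against 25.2% of all features. From E10.5 to E16.5, 0 of them rose or fell, against 17.4% of all features risen and 20.3% fallen. Ldha and Ldhb encode the subunits of lactate dehydrogenase, and Ldhb is the subunit for which the mouse oocyte is known. Ldhb read 10.87 and 10.68 in the pronuclear pools, 8.37 and 8.23 in the 2-cell pools and 4.95 and 6.28 in the morula pools. Later it was 10.05, 10.31 and 10.08 in the E10.5 embryos and 10.65, 10.11 and 9.92 in the E16.5 embryos. It declined through cleavage, as it fell by 2.48 ± 0.38 (SE, adjusted p = 1.02e-04) to the 2-cell stage and fell by 2.68 ± 0.38 (SE, adjusted p = 3.90e-05) to the morula, where its mean was within the receptor range, and it rose by 4.53 ± 0.35 (SE, adjusted p = 3.18e-08) to E10.5. Ldha read 8.84 and 9.51 in the pronuclear pools, 9.60 and 8.45 in the 2-cell pools and 8.68 and 8.74 in the morula pools. Later it was 17.25, 17.13 and 17.14 in the E10.5 embryos and 17.27, 16.70 and 17.06 in the E16.5 embryos. The 3 early stages overlapped, and Ldha rose by 8.46 ± 0.33 (SE, adjusted p = 2.23e-11) to E10.5. Slc16a1 and Slc16a3 encode the monocarboxylate carriers MCT1 and MCT4, the second typical of glycolytic cells. Slc16a3 read 6.55 and 7.60 in the pronuclear pools, 7.02 and 6.12 in the 2-cell pools and 7.16 and 6.62 in the morula pools. Later it was 11.21, 12.28 and 11.31 in the E10.5 embryos and 10.78, 10.48 and 10.92 in the E16.5 embryos. It rose by 4.71 ± 0.40 (SE, adjusted p = 8.84e-08) to E10.5. Slc16a1 read 10.42 and 9.89 in the pronuclear pools, 9.88 and 10.58 in the 2-cell pools and 10.15 and 10.13 in the morula pools. Later it was 11.49, 11.91 and 11.39 in the E10.5 embryos and 11.52, 11.96 and 10.87 in the E16.5 embryos, and it rose by 1.46 ± 0.34 (SE, adjusted p = 0.00207) to E10.5.

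Pyruvate dehydrogenase admits pyruvate to the mitochondrial oxidation of carbon, and the 4 Pdk kinases switch it off by phosphorylation. Pdha1, its X-linked catalytic subunit, had stage means from 6.90 in pronuclear embryos to 10.84 at E16.5; it rose by 1.72 ± 0.41 (SE, adjusted p = 0.00309) to the morula and rose by 1.62 ± 0.33 (SE, adjusted p = 0.00112) to E16.5. Pdk3 read 9.47 and 9.20 in the pronuclear pools, 10.71 and 10.76 in the 2-cell pools and 6.56 and 6.94 in the morula pools. Later it was 8.14, 8.61 and 8.05 in the E10.5 embryos and 6.66, 6.61 and 6.56 in the E16.5 embryos. It rose by 1.40 ± 0.29 (SE, adjusted p = 0.00118) to its highest level at the 2-cell stage, fell by 3.99 ± 0.29 (SE, adjusted p = 3.18e-08) to the morula, rose by 1.52 ± 0.26 (SE, adjusted p = 1.54e-04) to E10.5 and fell by 1.66 ± 0.23 (SE, adjusted p = 4.05e-05) to E16.5. Pdk1, a target of the hypoxia-inducible factors in other cells, read 7.60 and 9.06 in the pronuclear pools, 9.15 and 8.44 in the 2-cell pools and 5.64 and 6.35 in the morula pools. Later it was 11.86, 12.37 and 11.85 in the E10.5 embryos and 12.65, 12.00 and 12.62 in the E16.5 embryos. It fell by 2.80 ± 0.45 (SE, adjusted p = 1.09e-04) to the morula and rose by 6.03 ± 0.41 (SE, adjusted p = 7.29e-09) to E10.5, and the 2 later stages overlapped.

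Pdk2 read 7.43 and 7.16 in the pronuclear pools, 5.46 and 5.34 in the 2-cell pools and 4.27 and 5.90 in the morula pools. Later it was 7.35, 6.66 and 6.82 in the E10.5 embryos and 11.65, 10.01 and 11.93 in the E16.5 embryos. It was highest at E16.5, where it rose by 4.25 ± 0.46 (SE, adjusted p = 2.97e-06). Its fall to the 2-cell stage, by 1.90 ± 0.57 (SE, adjusted p = 0.0157), was not called without replicate 1 of the pronuclear stage or without either 2-cell pool (adjusted p from 0.0503 to 0.0832), and its rise to E10.5 of 1.85 ± 0.52 (SE, adjusted p = 0.00704) became 1.04 without replicate 1 of the morula (adjusted p = 0.162). Pdk4 stayed within the receptor range at every stage and read 3.13 and 3.30 in the pronuclear pools, 2.91 and 2.89 in the 2-cell pools and 3.35 and 2.65 in the morula pools. Later it was 3.18, 3.13 and 3.14 in the E10.5 embryos and 4.72, 4.20 and 4.67 in the E16.5 embryos. Its last step passed, as it rose by 1.38 ± 0.25 (SE, adjusted p = 3.48e-04).

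Of the 6 genes of gluconeogenesis, 2 rose and 4 fell from morula to E10.5, against 25.2% and 26.8% of all features. From E10.5 to E16.5, 4 rose and 0 fell, against 17.4% and 20.3% of all features. Centred on the receptor median, Fbp2 was the only one of the 4 falls to E10.5 that passed, with G6pc at -0.44 (adjusted p = 0.341) and Pck1 at -0.51 (adjusted p = 0.209). Each of the 2 rises was lost when 1 array was left out, as given below for Pcx and Pck2, and the group was not tested against the others. Fbp2, the fructose bisphosphatase known as the muscle form, had the widest range of stage means of the 38 genes. It read 6.60 and 6.38 in the pronuclear pools, 4.39 and 5.43 in the 2-cell pools and 15.64 and 15.31 in the morula pools. Later it was 4.16, 3.04 and 3.98 in the E10.5 embryos and 8.90, 8.09 and 8.58 in the E16.5 embryos. Both morula pools lay above all other arrays, and both neighbouring stages were within the receptor range. Fbp2 rose by 10.56 ± 0.42 (SE, adjusted p = 9.14e-11) to the morula, fell by 11.75 ± 0.38 (SE, adjusted p = 3.69e-12) to E10.5 and rose by 4.80 ± 0.34 (SE, adjusted p = 2.98e-08) to E16.5. Its earlier fall, from the pronuclear to the 2-cell stage by 1.58 ± 0.42 (SE, adjusted p = 0.00768), was not called without replicate 1 of the pronuclear stage (-1.47, adjusted p = 0.0522) or of the 2-cell stage (-1.06, adjusted p = 0.106).

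Fbp1, the form of liver and kidney, lies next to Fbp2 on chromosome 13, the 2 annotated genes on the array being 6352 bases apart on the minus strand (Fbp2 at chr13:62836877-62858400, Fbp1 at chr13:62864753-62888282, mm10). Fbp1 read 8.74 and 8.80 in the pronuclear pools, 6.66 and 6.34 in the 2-cell pools and 5.44 and 5.30 in the morula pools. Later it was 3.56, 4.13 and 4.30 in the E10.5 embryos and 11.69, 10.67 and 11.93 in the E16.5 embryos. It declined where Fbp2 peaked: it fell by 2.27 ± 0.38 (SE, adjusted p = 2.32e-04) to the 2-cell stage, fell by 1.13 ± 0.38 (SE, adjusted p = 0.0284) to the morula and fell by 1.37 ± 0.35 (SE, adjusted p = 0.00406) to E10.5, and then rose by 7.43 ± 0.31 (SE, adjusted p = 6.76e-11) to E16.5. The fall to the morula was not called without any 1 of 3 arrays (replicate 1 of the 2-cell stage or either morula pool, adjusted p from 0.0689 to 0.132), and the fall to E10.5 was not called when arrays were centred on the receptor median (-0.89, adjusted p = 0.0836).

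Pcx, pyruvate carboxylase, supplies oxaloacetate for gluconeogenesis and for the tricarboxylic acid cycle. It read 6.87 and 6.37 in the pronuclear pools, 6.29 and 5.32 in the 2-cell pools and 5.05 and 4.46 in the morula pools. Later it was 6.20, 6.63 and 5.43 in the E10.5 embryos and 8.92, 7.90 and 8.97 in the E16.5 embryos. The gene rose by 2.51 ± 0.38 (SE, adjusted p = 7.36e-05) to E16.5; its rise to E10.5, of 1.34 ± 0.42 (SE, adjusted p = 0.0149), was not called without replicate 2 of the morula (1.04, adjusted p = 0.129) or of E10.5 (1.06, adjusted p = 0.0672). Pck1 and Pck2 encode the cytosolic and the mitochondrial phosphoenolpyruvate carboxykinase. Pck1 was within the receptor range until E10.5 and read 6.11 on average at E16.5, where it rose by 1.92 ± 0.24 (SE, adjusted p = 1.12e-05). Its fall to E10.5, by 0.99 ± 0.27 (SE, adjusted p = 0.00561), was a change inside the receptor range and was not called without replicate 2 of the morula (-0.83, adjusted p = 0.0568). Pck2 rose by 1.35 ± 0.39 (SE, adjusted p = 0.00860) to E10.5, which became 0.71 without replicate 1 of the morula (adjusted p = 0.193). G6pc, the phosphatase that releases free glucose from liver and kidney, had stage means from 4.80 to 6.12, and its fall to E10.5, by 0.92 ± 0.36 (SE, adjusted p = 0.0418), was not called without replicate 1 of the morula (-0.44, adjusted p = 0.421; without replicate 2 it was -1.40, adjusted p = 0.0125), without E10.5 replicate 1 (-0.79, adjusted p = 0.128) or replicate 2 (-0.93, adjusted p = 0.0780), or without replicate 1 of E16.5 (-0.92, adjusted p = 0.0508).

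**Figure D3:**
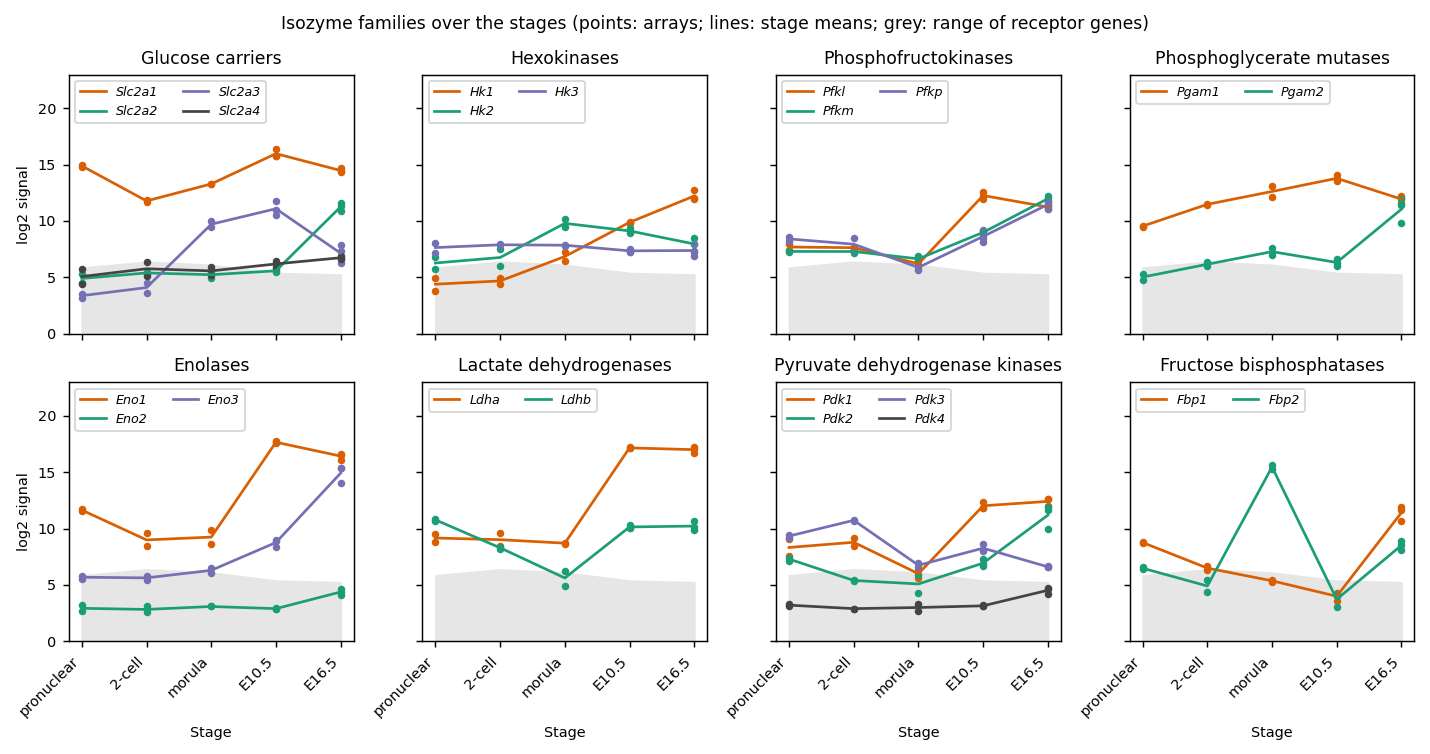
Log2 signal (y axis) of 8 families of isozymes and carriers over the 5 stages (x axis). Points are arrays, lines join stage means, and the grey area reaches up to the 95th percentile of the receptor genes; Slc2a3 leaves it in the morula (mean 9.71), Slc2a2 reaches 11.26 at E16.5, and Fbp2 peaks in the morula at 15.47.

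Whether isozymes moved differently was tested on 17 pairs, as the within-array difference of their log2 signals in the same fit. The change of the difference passed for 5 of 17 pairs from the pronuclear to the 2-cell stage, for 9 at the morula, for 16 at E10.5 and for 13 at E16.5. The pair of Fbp1 and Fbp2 moved farthest: Fbp2 gained on Fbp1 by 11.69 ± 0.50 (SE, adjusted p = 1.68e-10) from the 2-cell stage to the morula, and Fbp1 gained on Fbp2 by 10.38 ± 0.45 (SE, adjusted p = 6.65e-11) from there to E10.5. The gain of Fbp1 came from the fall of Fbp2, as Fbp1 itself fell by 1.37 and was within the receptor range at both stages. Slc2a3 gained on Slc2a1 by 3.82 ± 0.44 (SE, adjusted p = 5.86e-06) at the 2-cell stage and by 4.12 ± 0.44 (SE, adjusted p = 2.06e-06) at the morula. The first of these differences came from the fall of Slc2a1, as Slc2a3 was within the receptor range at both stages.

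At E10.5, Eno1 gained on Eno3 by 5.95 ± 0.45 (SE, adjusted p = 2.55e-08) and on Eno2, which stayed within the receptor range, by 8.61 ± 0.44 (SE, adjusted p = 3.57e-10). Pkm gained on Pklr by 5.56 ± 0.41 (SE, adjusted p = 1.94e-08), Aldoa on Aldoc by 3.52 ± 0.37 (SE, adjusted p = 1.03e-06) and Ldha on Ldhb by 3.93 ± 0.40 (SE, adjusted p = 7.47e-07). Pfkl gained on Pfkm by 3.70 ± 0.32 (SE, adjusted p = 1.02e-07) and on Pfkp by 3.31 ± 0.44 (SE, adjusted p = 1.09e-05), and Hk1 gained on Hk2 by 3.70 ± 0.47 (SE, adjusted p = 7.28e-06). Among the kinases, Pdk1 gained on Pdk4, which stayed within the receptor range, by 5.88 ± 0.42 (SE, adjusted p = 1.54e-08), on Pdk3 by 4.51 ± 0.41 (SE, adjusted p = 2.10e-07) and on Pdk2 by 4.18 ± 0.51 (SE, adjusted p = 5.36e-06). Slc16a3 gained on Slc16a1 by 3.25 ± 0.53 (SE, adjusted p = 9.12e-05). In the morula, Pklr, Aldoc, Ldhb, Pfkp, Pdk1 and Pdk2 were also within the receptor range. The differences of pairs with these genes, or with Eno2 or Pdk4, are not read as folds.

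From E10.5 to E16.5 the difference of several pairs changed in the other direction. Eno3 gained on Eno1 by 7.39 ± 0.40 (SE, adjusted p = 1.34e-09), and Pgam2 on Pgam1 by 6.57 ± 0.45 (SE, adjusted p = 1.81e-08). The muscle subunit Pfkm gained on Pfkl by 4.01 ± 0.28 (SE, adjusted p = 2.77e-08), and Pfkp did so by 3.85 ± 0.39 (SE, adjusted p = 1.42e-06). Pdk2 gained on Pdk1 by 3.86 ± 0.46 (SE, adjusted p = 7.64e-06). For Hk1 and Hk2 the direction was that of the step before, and Hk1 gained by a further 3.51 ± 0.42 (SE, adjusted p = 7.95e-06). Of the 43 pair changes that passed, 7 were lost under some alternative, all below 3 log2 units, and 4 of them moved by over 1.5 times when 1 array was left out. Among these were Pdk1 and Pdk2 at the 2-cell stage (2.35, and 1.49 without replicate 1 of the pronuclear stage, adjusted p = 0.0754), Aldoa and Aldoc at the morula (1.29, and 0.71 without replicate 2 of the 2-cell stage, adjusted p = 0.228), and Pkm and Pklr at the morula (-1.52, and -0.78 without replicate 1 of the morula, adjusted p = 0.208). The fourth was Pgam1 and Pgam2 at E10.5 (2.14, and 1.35 without replicate 1 of the morula, adjusted p = 0.0635). The others lost with 1 array left out were Pfkm and Pfkp at the morula (1.41, and 0.95 without replicate 2 of the morula, adjusted p = 0.173, or 0.98 without replicate 1 of the 2-cell stage, adjusted p = 0.159), Slc2a1 and Slc2a3 at E10.5 (1.31, and 1.01 without replicate 2 of the morula, adjusted p = 0.120, or 1.12 without replicate 1 of E10.5, adjusted p = 0.0530), and Pdk1 and Pdk3 at the morula (1.19, adjusted p = 0.0479), which 8 of the 12 such fits did not call (0.81 to 1.35, adjusted p from 0.0570 to 0.270).

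**Figure D4:**
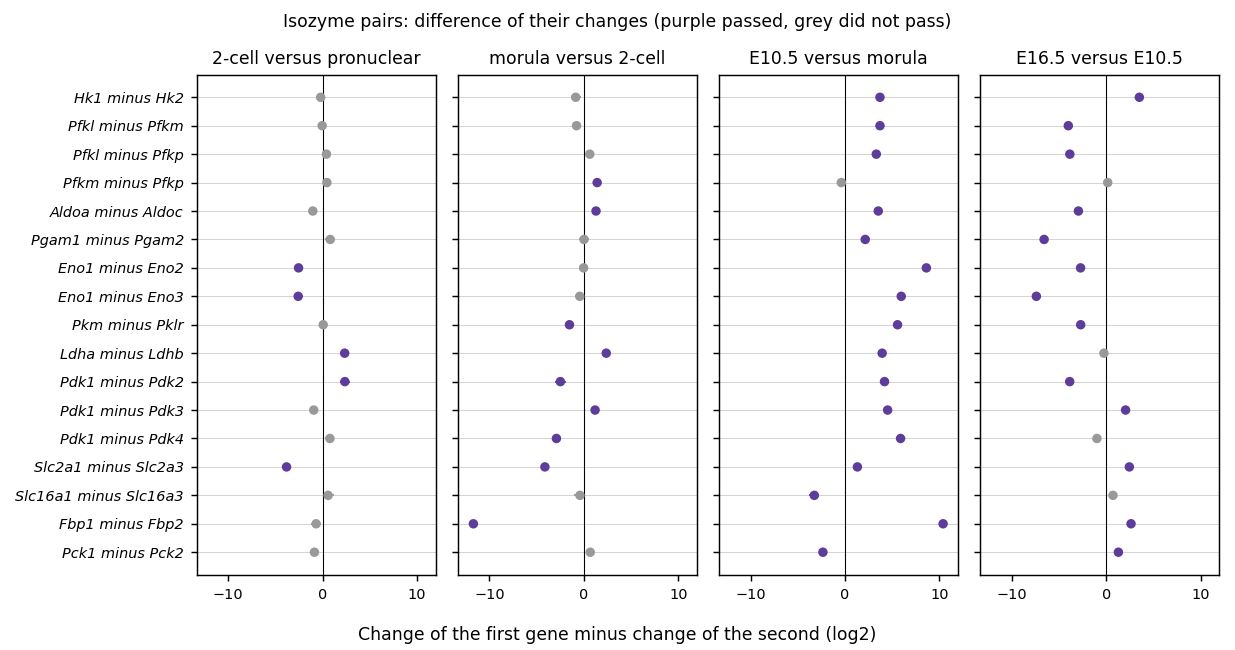
Difference between the log2 changes of 2 isozymes (change of the first gene minus change of the second, points, with bars of 1 standard error mostly narrower than the point) for 17 pairs at the 4 steps. Purple points passed the test and grey ones did not; Eno1 minus Eno3 lies at 5.95 at E10.5 and at -7.39 at E16.5.

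Markers of tissues appeared with the late isozymes. For comparison, 17.4% of all features rose from E10.5 to E16.5, and 25.2% rose from morula to E10.5. All 10 skeletal muscle markers rose from E10.5 to E16.5, with a median of 9.92 log2 units, beside the rises of Eno3, Pgam2, Pfkm and Fbp2; their mean signal per array was 6.32 to 6.43 at E10.5 and 14.42 to 15.08 at E16.5, and each marker was above the receptor range at E16.5. Of 10 liver markers 9 rose, with a median of 10.24, beside Slc2a2, Fbp1 and Pck1; their mean went from 6.41 to 6.48 at E10.5 to between 15.10 and 15.24 at E16.5, and the enzyme gene Tat stayed within the receptor range. Of 10 erythroid markers 8 rose, with means of 8.16 to 8.69 at E10.5 and 9.60 to 10.40 at E16.5. At E10.5 itself 10 of 10 neuron, 9 of 10 heart muscle and 9 of 10 erythroid markers had risen over the morula, with medians of 4.89, 3.67 and 2.62. Not all genes named above for these tissues rose from E10.5 to E16.5. Of those named for muscle, Hk2 fell by 1.16, Slc2a4 did not pass (0.55, adjusted p = 0.278) and Aldoa rose by 1.26. Of those named for liver, Pfkl fell by 1.02, G6pc did not pass (0.27, adjusted p = 0.576) and Pklr rose by 1.13. Of those named for neurons or brain, Slc2a3 fell by 3.95, Aldoc rose by 4.20 and Eno2 rose by 1.47 within the receptor range. Slc2a1, named for erythrocytes among other cells, fell by 1.50. At the step from morula to E10.5, Aldoc (0.74, adjusted p = 0.125) and Eno2 (-0.19, adjusted p = 0.590) did not pass, while Slc2a3 rose by 1.38 and Slc2a1 by 2.69. The part of tissue composition in the changes of the glucose genes was not tested.

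At E16.5, replicate 2 was the lowest of the 3 embryos for 28 of the 38 genes (73.7%), while it was the lowest for 38.4% of all features. It also had the lowest mean of the skeletal muscle markers (14.42, against 15.08 and 14.93) and of the neuron markers (10.71, against 10.96 and 11.33). The same held, by less, for the liver markers (15.10, against 15.14 and 15.24) and the heart muscle markers (9.25, against 9.28 and 9.44). Replicate 2 had the highest mean of the erythroid markers (10.40, against 9.84 and 9.60). Without it, 18 of the 38 genes rose and 7 fell from E10.5 to E16.5, while 3791 of the 21980 features rose and 4193 fell. Among the E10.5 embryos, replicate 2 was the highest for 25 of the 38 genes, and it was the highest for 34.5% of all features. Markers of cumulus and granulosa cells, which surround the ovulated egg, had a mean of 5.69 and 5.74 in the pronuclear pools and of 5.18 and 5.20 in the 2-cell pools. Between these stages 3 of the 10 markers fell (Foxl2, Fshr and Tnfaip6), against 19.8% of all features, beside the 7 falls of glucose genes. Of these markers 4 were above the receptor range in pronuclear embryos: Tnfaip6 with 11.28, Inhba with 7.50, Ptx3 with 6.37 and Has2 with 5.88. Foxl2, Amh, Cyp19a1, Fshr, Lhcgr and Inhbb were within it, Fshr with a mean of 5.71 and 6.07 in replicate 1. The part of these cells in the falls was not tested.

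Lists of genes of neighbouring pathways were counted at the same steps. For comparison with each list, 16.1%, 20.1%, 25.2% and 17.4% of all features rose at the 4 steps in turn. The shares of all features that fell were 19.8%, 20.2%, 26.8% and 20.3%. Of 17 genes of the tricarboxylic acid cycle, which oxidizes the carbon of pyruvate, 3 rose and 8 fell at the 2-cell stage, 13 rose and 0 fell at the morula, 7 rose and 1 fell at E10.5, and 12 rose and 0 fell at E16.5. Their median change at the morula was 1.77, where that of the 38 genes was -0.12. Idh2, a mitochondrial isocitrate dehydrogenase, rose by 4.52 ± 0.33 (SE, adjusted p = 3.52e-08) to the morula, and fumarase Fh1 fell by 3.20 ± 0.23 (SE, adjusted p = 1.43e-08) to E10.5. Of 9 genes of the pyruvate dehydrogenase complex and of pyruvate import, 4 rose and 5 fell at the 2-cell stage, 3 rose and 3 fell at the morula, 2 rose and 5 fell at E10.5, and 6 rose and 0 fell at E16.5. Mpc1, a subunit of the mitochondrial pyruvate carrier, rose by 4.04 ± 0.31 (SE, adjusted p = 6.71e-08) to E16.5, and the dehydrogenase phosphatase Pdp2 fell by 4.11 ± 0.29 (SE, adjusted p = 1.01e-08) to E10.5.

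The pentose phosphate pathway, which branches from glucose 6-phosphate and makes NADPH and ribose, was followed with 8 genes. Counts of rises and falls were 2 and 2 at the 2-cell stage, 2 and 2 at the morula, 4 and 2 at E10.5, and 1 and 0 at E16.5. The shares at the morula, 25.0% each, were near those of all features (20.1% and 20.2%). Its entry enzyme G6pdx fell by 4.37 ± 0.31 (SE, adjusted p = 2.97e-08) from the 2-cell stage to the morula, from a mean of 13.98 to 9.61, and the transketolase Tkt rose by 5.81 ± 0.36 (SE, adjusted p = 2.98e-09) to E10.5. Among 15 other isozymes and side steps of glycolysis, 1 rose and 8 fell at the 2-cell stage, 5 rose and 5 fell at the morula, 7 rose and 2 fell at E10.5, and 4 rose and 3 fell at E16.5. Bpgm, whose product makes bisphosphoglycerate from a glycolytic intermediate, fell by 6.50 ± 0.44 (SE, adjusted p = 1.57e-08) to the morula.

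Of 6 regulators of phosphofructokinase and hexokinase, 1 rose and 2 fell at the 2-cell stage, 3 rose and 1 fell at the morula, 1 rose and 2 fell at E10.5, and 3 rose and 1 fell at E16.5. Pfkfb2, which makes and removes the activator of phosphofructokinase, rose by 3.13 ± 0.31 (SE, adjusted p = 8.71e-07) to the morula. Tigar, a phosphatase that degrades that activator, fell by 6.06 ± 0.31 (SE, adjusted p = 3.67e-10) from morula to E10.5, from a mean of 12.32 to 6.25, the step at which most glycolysis genes rose. Among 12 other carriers of sugars and monocarboxylates, 0 rose and 3 fell at the 2-cell stage, 1 rose and 1 fell at the morula, 3 rose and 0 fell at E10.5, and 4 rose and 1 fell at E16.5. The sodium-coupled glucose carrier Slc5a1 rose by 3.61 ± 0.34 (SE, adjusted p = 5.79e-07) to E16.5, and Emb, a partner of the monocarboxylate carriers, fell by 2.10 ± 0.30 (SE, adjusted p = 3.69e-05) to the morula.

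**Figure D5:**
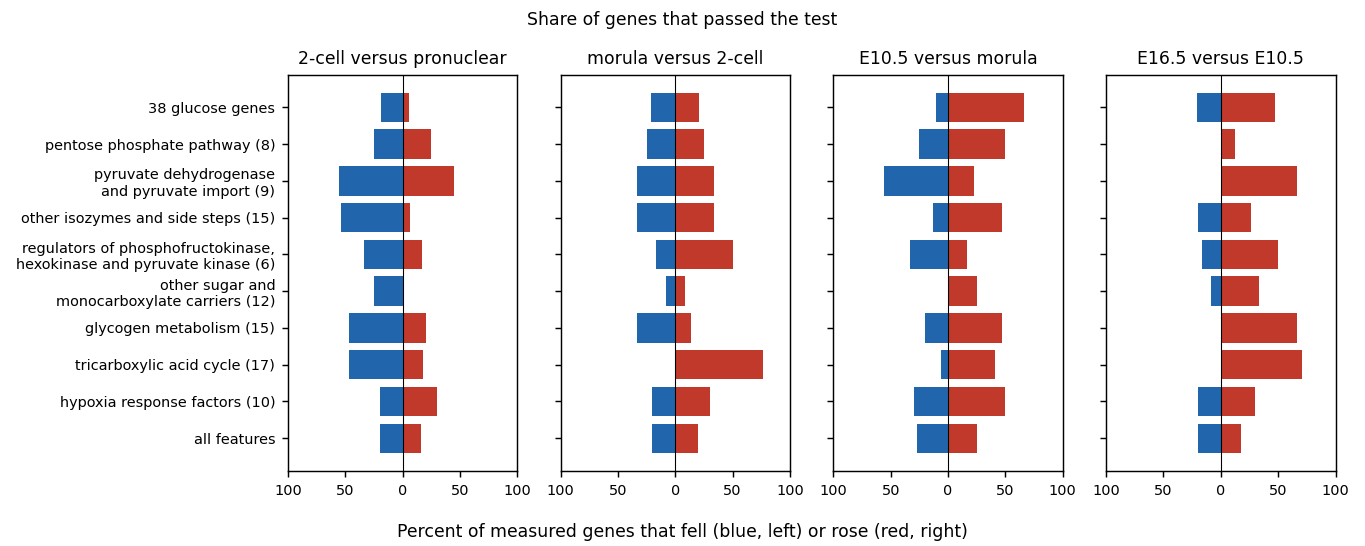
Percent of the measured genes of each list that rose (red, right) or fell (blue, left) at each of the 4 steps, for the 38 glucose genes, 8 other lists (number of genes in brackets) and all features. At the morula, tricarboxylic acid cycle genes reach 76.5% risen and the glucose genes 21.1%, near the 20.1% of all features; at E10.5 the glucose genes reach 65.8%.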

How the data were processed

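The log2 signals, 1 per probe set and array, were deposited by the authors. Per the file headers they were summarised by SST-RMA (robust multi-array averaging after signal space transformation) and annotated with release na36 on mm10. The tool listed in the submitters' processing notes is the Transcriptome Analysis Console, with no version. Their table also holds stage means (log2), standard deviations of the deposited log2 values (a score here), the p-value and false discovery rate of the authors' F test, and a deposited flag (other) per stage whose rule is not given. A second deposited table held the same log2 values, with 0 rows that differ, and 0 columns of per-sample values went unused. For arrays no counting depth applies, and their number limits the precision.

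Of 22206 rows, 21367 carried 1 symbol, 836 several and 3 none. After leaving out 223 dimmer rows with the same symbols, 21980 features were fitted in 1 linear model of the 5 stages by lmFit and eBayes (limma 3.58.1, R 4.3.3), since 2 or 3 arrays a stage are too few for a spread of their own. Two-sided tests of the 4 steps from each stage to the next were adjusted by Benjamini-Hochberg, and called at 0.05. Differences of 17 isozyme pairs entered the same fit as further rows. Promoters were searched with Python 3.11.15, and figures drawn with matplotlib 3.10.9.

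The members, the other gene lists, the tests and the rule for naming were chosen with earlier results of these data known. By that rule, values on every array are given for members that passed at a step with a change of at least 2 log2 units, and for both genes of a pair that passed with at least 3. For each other list, counts per step and the largest passing rise and fall are given, except 2 genes that are not reported here. Whether the probes of Gapdh, Pgk1, Ldha and other genes with processed pseudogenes also bind those copies was not tested. Positions are those of the deposited annotation. Alternatives were array weights, a robust prior with an intensity trend, the replicate number as a block, cyclic loess, quantile normalization, centring of arrays on their upper quartile or their receptor median, removal of dim genes, rows with 1 symbol only, the mean of a symbol's rows, a threshold of 0.01, a minimum change of 1 log2 unit, fits of fewer stages and leaving out each array.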

Additional observations from a re-analysis of the deposited data

How the results depend on the processing

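Of the 80 changes of single genes that passed, 63 passed under every alternative other than the stricter thresholds and 17 were lost under at least 1. Of the 72 that did not pass, 20 passed under at least 1. No change that passed in the main or the alternative fit had the other sign in the other, for members or pairs. Of the 43 pair changes, 36 passed under every alternative that tested them. Pairs were not run with dim genes removed, rows with 1 symbol only, the mean of a symbol's rows or the stricter thresholds. Among the counts of members, those that moved by over 1.5 times were the falls from E10.5 to E16.5 under cyclic loess (5, main 8), the falls from morula to E10.5 centred on the receptor median (1, main 4) or with a change of at least 1 log2 unit (2), and the rises to the 2-cell stage, which ranged from 2 to 4 when each array was left out. The cause was not tested. Centring on the receptor median moved the median change of all features at E10.5 from -0.17 to 0.31, and the features that rose and fell from 5532 and 5888 to 7283 and 3562 (48.4% to 67.2% risen); relative to that, 28 members rose. Centring on the upper quartile moved the median at the morula from 0.11 to 0.34 (49.9% to 60.2% risen) and at E10.5 to -0.42 (39.2% risen), with members at 11 risen and 7 fallen and at 25 and 5; at the 2-cell stage and at E16.5 it gave medians of 0.15 and 0.05. The receptor median gave -0.19 at the 2-cell stage and 0.04 at E16.5, and cyclic loess and quantile normalization gave -0.04 and -0.03 at E10.5. Replicate numbers did not pair the arrays: same-numbered deviations correlated between -0.113 and 0.0451 over 21 pairs, with 0 above 0.1. With the number as a block, 3 members rose and 7 fell to the 2-cell stage, 8 and 8 to the morula, 25 and 4 to E10.5 and 18 and 8 to E16.5. Features that rose and fell in that fit numbered 3357 and 4158, 4234 and 4294, 5242 and 5375, and 3689 and 4230 in turn. Signals within the receptor range limit what can be read of low genes, above all Eno2 and Pdk4.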

Other observations

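Glycogen genes, which store and release the glucose units that feed the pathway, were followed with 15 members. Of these 3 rose and 7 fell at the 2-cell stage, 2 rose and 5 fell at the morula, 7 rose and 3 fell at E10.5, and 10 rose and 0 fell at E16.5, where their median change was 0.95 and that of all features -0.08. At the 4 steps in turn, 16.1%, 20.1%, 25.2% and 17.4% of all features rose, and 19.8%, 20.2%, 26.8% and 20.3% fell. The muscle phosphorylase Pygm rose by 7.46 ± 0.31 (SE, adjusted p = 5.96e-11) to E16.5, beside the 10 skeletal muscle markers that rose at the same step. Glycogenin, the primer of glycogen encoded by Gyg, fell by 3.69 ± 0.32 (SE, adjusted p = 2.37e-07) from the 2-cell stage to the morula.

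Of 10 genes of the hypoxia response, 3 rose and 2 fell at the 2-cell stage, 3 rose and 2 fell at the morula, 5 rose and 3 fell at E10.5, and 3 rose and 2 fell at E16.5. All features had shares of 16.1%, 20.1%, 25.2% and 17.4% risen, and of 19.8%, 20.2%, 26.8% and 20.3% fallen. The 2 main alpha subunits of the hypoxia-inducible factors moved in opposite directions from morula to E10.5. Epas1 rose by 8.20 ± 0.32 (SE, adjusted p = 8.66e-11) from the 2-cell stage to the morula, from a mean of 5.03 to 13.23, and fell by 7.60 ± 0.29 (SE, adjusted p = 1.86e-11) to E10.5. Hif1a rose by 3.75 ± 0.26 (SE, adjusted p = 9.06e-09) from morula to E10.5, from a mean of 10.36 to 14.11. Hif1a fell to the 2-cell stage, to the morula and to E16.5, and it was named outside the rule of largest changes. These signals are of RNA and say nothing of protein. The difference between the changes of Epas1 and Hif1a was not tested.

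Lists of marker genes of stages and tissues were counted at the 4 steps in turn, from the pronuclear to the 2-cell stage, to the morula, to E10.5 and to E16.5. At these steps 16.1%, 20.1%, 25.2% and 17.4% of all features rose, and 19.8%, 20.2%, 26.8% and 20.3% fell. For the 10 cumulus and granulosa cell markers, the counts of rises and falls were 0 and 3, 2 and 2, 3 and 0, and 0 and 1, with the largest passing change in each direction in Tnfaip6 to E10.5 (rise of 3.91 ± 0.30 SE, adjusted p = 3.14e-08) and Tnfaip6 to the morula (fell by 4.89 ± 0.33 SE, adjusted p = 1.62e-08). Over the 10 erythroid cell markers, the counts of rises and falls were 0 and 1, 1 and 1, 9 and 0, and 8 and 0, with the largest passing fall in Epb42 to the 2-cell stage (fell by 2.29 ± 0.38 SE, adjusted p = 1.97e-04). Among the 10 liver markers, the counts of rises and falls were 0 and 1, 5 and 0, 5 and 2, and 9 and 0, with the largest passing change in each direction in Ahsg to E16.5 (rise of 13.65 ± 0.26 SE, adjusted p = 9.02e-14) and Tat to E10.5 (fell by 5.76 ± 0.34 SE, adjusted p = 1.56e-09). Across the 10 skeletal muscle markers, the counts of rises and falls were 1 and 0, 3 and 0, 3 and 1, and 10 and 0, with the largest passing change in each direction in Myh8 to E16.5 (rise of 12.67 ± 0.35 SE, adjusted p = 6.06e-13) and Mylpf to E10.5 (fell by 5.18 ± 0.29 SE, adjusted p = 9.64e-10). Of the 10 heart muscle markers, the counts of rises and falls were 0 and 0, 2 and 0, 9 and 0, and 5 and 3, with the largest passing change in each direction in Nppa to E10.5 (rise of 6.57 ± 0.46 SE, adjusted p = 1.01e-08) and Myl7 to E16.5 (fell by 2.48 ± 0.32 SE, adjusted p = 1.62e-05). For the 10 neuron markers, the counts of rises and falls were 1 and 2, 1 and 3, 10 and 0, and 4 and 1, with the largest passing change in each direction in Nefm to E10.5 (rise of 8.55 ± 0.31 SE, adjusted p = 9.76e-12) and Tubb3 to the morula (fell by 4.51 ± 0.45 SE, adjusted p = 1.06e-06). Over the 7 pronuclear and oocyte markers, the counts of rises and falls were 0 and 6, 0 and 7, 0 and 6, and 0 and 0, with the largest passing change in Oosp1 to the morula (fell by 11 ± 0.33 SE, adjusted p = 5.35e-12). Among the 6 markers of the 2-cell stage, the counts of rises and falls were 6 and 0, 0 and 5, 0 and 5, and 0 and 0, with the largest passing change in each direction in Guca1a to the 2-cell stage (rise of 11.99 ± 0.28 SE, adjusted p = 1.29e-12) and Guca1a to E10.5 (fell by 11.07 ± 0.25 SE, adjusted p = 9.96e-14). Across the 7 morula markers, the counts of rises and falls were 1 and 2, 6 and 0, 0 and 7, and 2 and 1, with the largest passing change in each direction in Cldn4 to the morula (rise of 9.13 ± 0.45 SE, adjusted p = 6.48e-10) and Dppa3 to E10.5 (fell by 13.62 ± 0.28 SE, adjusted p = 5.43e-14). Of the 7 postimplantation embryo markers, the counts of rises and falls were 1 and 0, 1 and 0, 6 and 0, and 0 and 6, with the largest passing change in each direction in Sox9 to E10.5 (rise of 5.51 ± 0.30 SE, adjusted p = 5.69e-10) and Sox9 to E16.5 (fell by 3.45 ± 0.26 SE, adjusted p = 7.00e-08).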
